A study of Mus musculus with 23 samples.

Results

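The HOX genes and their partners of the MEIS and PBX families were followed through 4 stages of blood cell formation from mouse embryonic stem (ES) cells, each with and without the leukaemic fusion protein RUNX1-ETO. Members were all genes whose symbol joins Hox to a cluster letter and a number, together with the genes of the MEIS and PBX families. They were found through the RefSeq accession of each array probe, and where a gene had several probes the brightest on average was used. Of 20145 genes with a probe, 46 were members, which were 39 HOX genes, 3 MEIS genes and 4 PBX genes. All 46 such genes of the RefSeq table used had a probe. On 1 array or more, 28 members reached 6.5 in log2 intensity, of which 22 were HOX genes, and these were tested in 1 fit with all 15203 genes that passed the same filter. The other 18 members were not tested.

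RNA was hybridised in 1 colour to Agilent mouse arrays. All cells came from A2lox ES cells (strain C57BL/6 by the labels) that carry human RUNX1-ETO behind a tetracycline-responsive promoter, with endogenous Runx1 intact. Haemogenic endothelium (HE, sorted as KIT+Tie2+CD41-), HE2 (KIT+Tie2+CD41+) and CD41+KIT+Tie2- progenitors came from blast culture, where doxycycline (Dox, 0.1 μg per ml) was given to induced cells from day 1. Myeloid progenitors were KIT+CD41+ cells placed in expansion medium with cytokines, and induced ones received Dox for 12 h. There were 3 arrays per group, except that CD41+KIT+Tie2- progenitors had 2 arrays in each of their groups. Induced myeloid array 3 is a biological replicate by its title and a technical one by another label, and was counted as a replicate. Without it 7 members passed with Dox in myeloid progenitors. A further array of uninduced progenitors, labelled a technical replicate, was normalized with the others and kept out of the fit. The ES clones were picked from 1 targeting experiment, and no array of cells given Dox without the transgene was analysed here, so that the effects of Dox and of RUNX1-ETO cannot be told apart. Since the replicates are known only as labelled, P values measure the spread between these arrays. In pools of sorted cells, fewer cells with a transcript and less transcript per cell cannot be told apart.

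HOX genes encode homeodomain factors that set position along the body axis. They lie in 4 clusters, in which the order of the genes follows the order of their expression along the axis. HOX proteins bind DNA together with PBX and MEIS proteins, homeodomain factors of the TALE class, and MEIS proteins also help to bring PBX into the nucleus. In blood, HOXA and HOXB genes and MEIS1 are active in stem and progenitor cells and are shut down as cells mature, and HOXA9 with MEIS1 drives several forms of acute leukaemia.

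The probe for Runx1t1, the gene that gives the ETO part of the fusion, read higher after Dox at every stage, by 1.24 ± 0.34 (log2, SE) in HE, by 2.08 ± 0.34 in HE2, by 3.97 ± 0.41 in CD41+KIT+Tie2- and by 2.06 ± 0.34 in myeloid progenitors, and passed the test at all stages but HE. The arrays had 48.8 to 78.4% of their spots well above background. The lowest share was that of induced CD41+KIT+Tie2- progenitor array 2, which lay on a different slide from the other induced progenitor array. Among surface markers used for sorting, Itga2b, which encodes CD41, read lower in induced HE by 3.21 ± 0.65, and Tek, which encodes Tie2, read higher in induced myeloid progenitors by 3.08 ± 0.72. The mean log2 intensity of 6 endothelial markers was 11.98 to 13.71 on uninduced and 12.40 to 13.50 on induced HE arrays, and 11.04 to 12.10 and 12.58 to 13.39 in HE2. It was 9.98 to 10.04 and 11.54 to 11.77 in CD41+KIT+Tie2- progenitors, and 9.70 to 10.42 and 12.01 to 12.38 in myeloid progenitors, where 5 of the 6 markers passed the test as higher. Emcn and Esam passed as higher in HE2 and in CD41+KIT+Tie2- progenitors as well, and none of the 6 was called in HE. Of all genes tested, 5.11% passed as higher in HE2, 3.05% in CD41+KIT+Tie2- and 5.12% in myeloid progenitors. The mean of 8 mesenchyme and smooth muscle markers was 10.01 to 11.04 on uninduced and 9.55 to 9.90 on induced HE arrays, and 9.30 to 10.33 and 8.05 to 8.51 in HE2. Of the 7 tested, 1 passed as higher and 3 as lower in HE, and 4 as lower in HE2. In CD41+KIT+Tie2- progenitors their mean was 8.48 to 8.61 and 7.90 to 8.61, and none was called. In myeloid progenitors it was 6.85 to 7.58 and 7.40 to 7.93, and only Pdgfrb passed, as lower. Of the other lists, the mean of 7 haematopoietic markers was 10.02 to 10.56 on uninduced and 9.33 to 9.91 on induced HE2 arrays, and that of 4 epithelial markers was 8.65 to 9.25 and 7.0 to 7.5. Among the haematopoietic markers Gata1 rose in HE2, and Spi1 fell in HE2 and in CD41+KIT+Tie2- progenitors. Of the epithelial markers 2 were tested, of which Krt18 fell in HE and HE2 and Krt8 in HE2. Of 3 macrophage markers Mrc1 rose at all stages and Csf1r fell in HE2. Of 5 cardiac markers Myl7 rose in HE, Actc1 fell in HE2 and Tnnt2 rose in both kinds of progenitors. Of 3 mast cell markers only Cpa3 was tested, and it rose at all stages but HE2. Of 4 markers of undifferentiated ES cells 1 was tested, and it did not pass. The part of these markers in the results for HOX, MEIS and PBX genes was not tested.

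Probes for the HOXB and HOXD genes and for the MEIS and PBX genes carried most of the signal, and most HOXC probes read near background. A probe was taken as detected in a group when its spot was well above background on all arrays of the group. By this measure 29 of the 46 members were detected in uninduced HE, 26 in uninduced HE2, 23 in uninduced CD41+KIT+Tie2- progenitors and 7 in uninduced myeloid progenitors. With Dox the numbers were 28, 30, 15 and 18. The 15 of induced CD41+KIT+Tie2- progenitors stand beside the low share of spots above background on array 2 of that group, whose part in this count was not tested. The measure is easier to meet with 2 arrays than with 3. Uninduced myeloid arrays had 51.2 to 63.6% of spots well above background, and the other uninduced arrays of the fit 64.5 to 78.4%. Induced arrays had 59.2 to 77.1% in HE, 66.1 to 68.0% in HE2 and 56.7 to 65.0% in myeloid progenitors. In induced CD41+KIT+Tie2- progenitors the shares were 65.6 and 48.8%. The share of all genes detected in each group was not taken. On the further uninduced progenitor array, on the slide of the myeloid arrays, 19 members were well above background. The part of these limits in the counts was not tested. Detected on all 22 arrays of the fit were 7 members, among them Hoxa9, Hoxb4, Meis1, Meis3, Pbx2 and Pbx3. Not well above background on any of the 22 arrays were 4 members, Hoxa10, Hoxa11, Hoxb1 and Hoxd12.

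**Figure D1:**
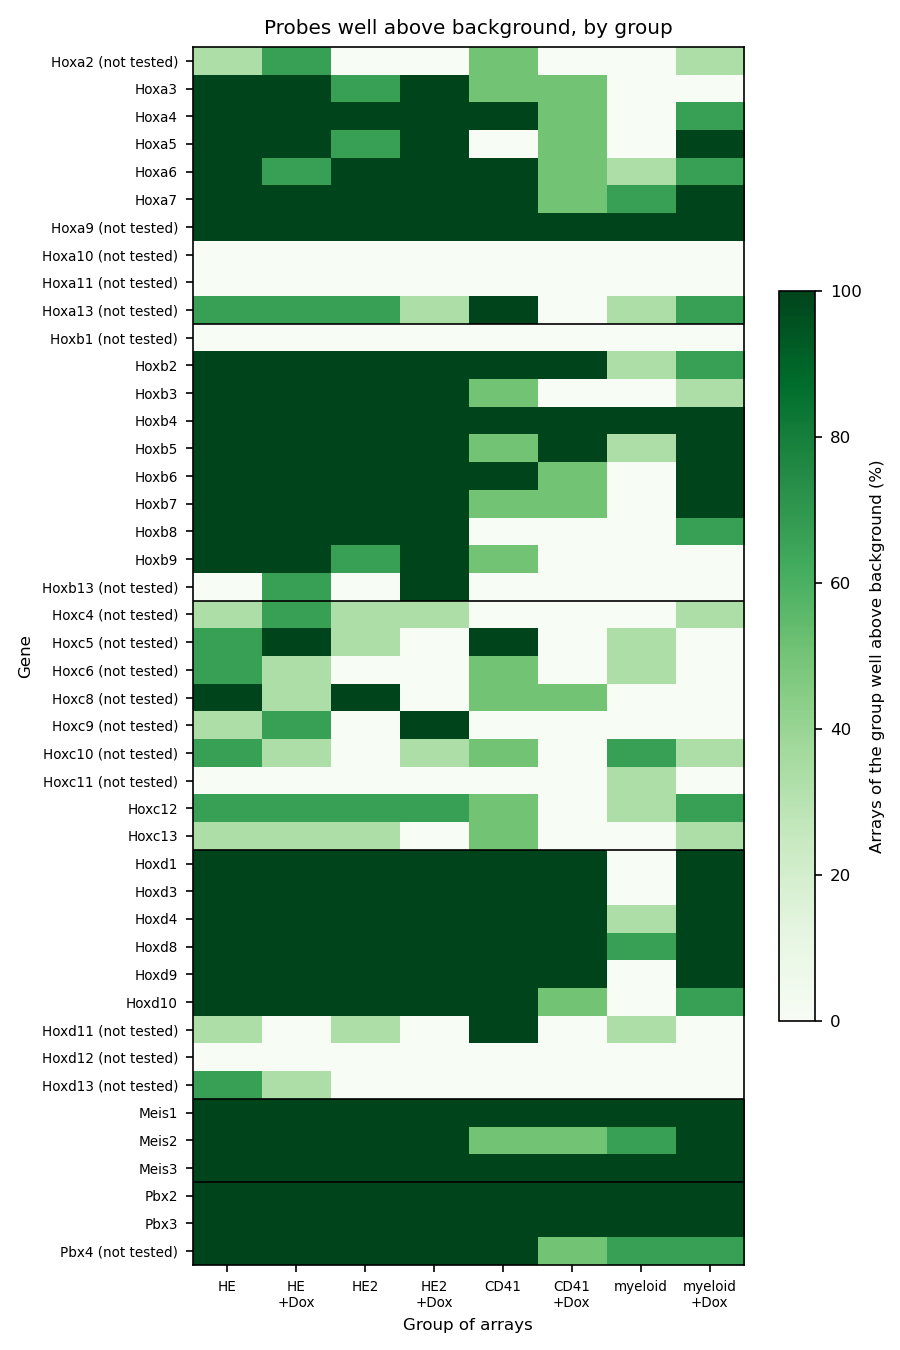
Detection of HOX, MEIS and PBX genes in the 8 groups. Rows are genes by cluster, columns are groups of arrays, with CD41 for CD41+KIT+Tie2- progenitors and myeloid for myeloid progenitors, and the shade is the percentage of the arrays of a group on which the probe was well above background. In uninduced myeloid progenitors 24 of all 46 members were not well above background on any array, and in induced myeloid progenitors 14.

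Of the 18 members that were not tested, 7 belonged to the HOXC cluster, 5 to HOXA, 3 to HOXD and 2 to HOXB, and the last was Pbx4. Hoxa9, the HOX gene best known from leukaemia, was well above background on all 22 arrays of the fit but read between 5.56 and 6.48, so that it stayed just under the filter of 6.5. Pbx4 reached 6.42 and Hoxc10 reached 6.27. The members just over the filter were Hoxc12, which reached 6.71, Hoxa4 with 7.26 and Hoxb9 with 7.31. Hoxa10, which works with HOXA9 in progenitors, read between 4.43 and 5.21 and was not well above background on any array. When all genes with a probe were fitted without the filter, none of the 18 passed the test in any comparison with and without Dox.

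A gene was called when its change was 2-fold or more and its unadjusted P in limma did not exceed 0.001. Adjusted P values were taken over all genes tested. In HE, 3 of the 28 members tested rose with Dox, compared with 4.7% of all genes tested, and 2 fell, compared with 2.39%. In HE2, 4 rose (5.11% of all genes) and 1 fell (2.07%). In CD41+KIT+Tie2- progenitors, 3 rose (3.05%) and none fell (0.704%), and in myeloid progenitors 7 rose (5.12%) and none fell (1.18%). The median changes of the 28 members were, in the order HE, HE2, CD41+KIT+Tie2- and myeloid progenitors, -0.03, 0.45, 0.25 and 0.60, beside -0.01, -0.03, -0.04 and -0.02 over all genes tested. In CD41+KIT+Tie2- and in myeloid progenitors no member passed the test as lower, and 21 and 25 of the 28 changes were positive. In either direction, 10 and 12 members had an unadjusted P of at most 0.05 in limma, and the share of all genes at that P was not taken.

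**Figure D2:**
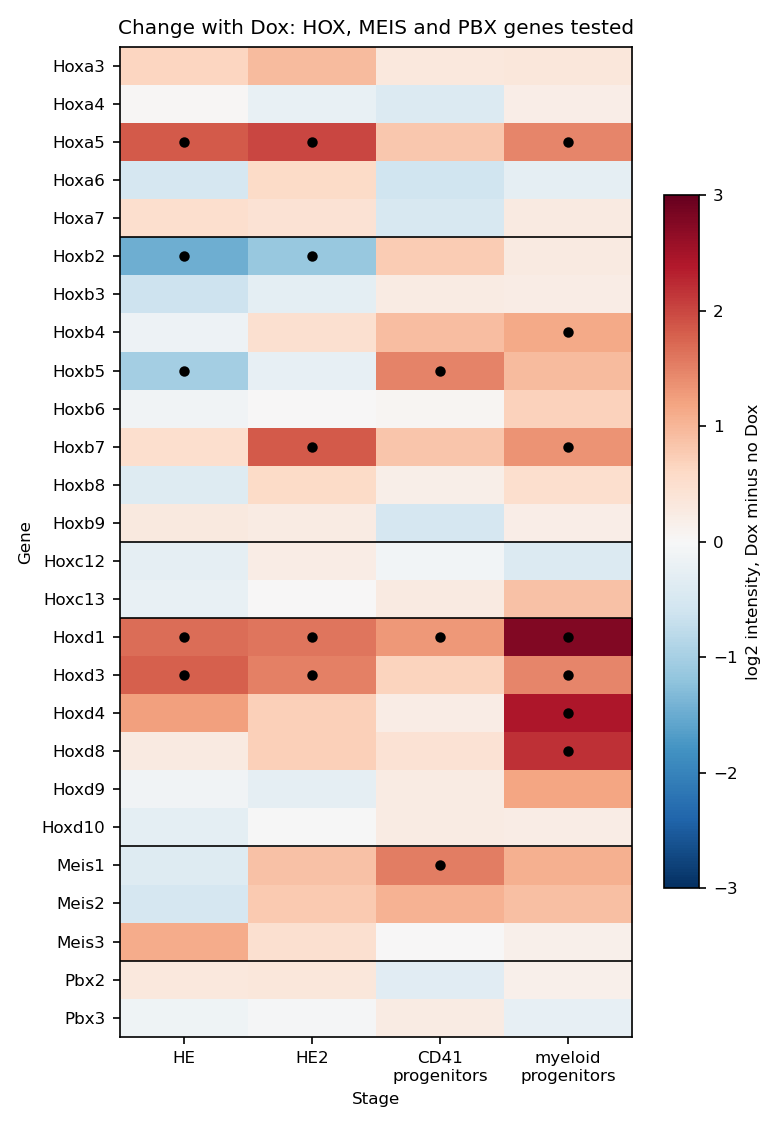
Change in log2 intensity with Dox for members that were tested, at each of the 4 stages. Colour is the mean of the induced arrays minus that of the uninduced arrays, from -3 to 3, and a black dot marks a gene that passed the test. Dots lie on 10 genes, and Hoxd1 carries 4 of them.

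Across the 4 stages, 10 members passed the test with Dox at 1 stage or more, which were Hoxa5, 4 HOXB genes, 4 HOXD genes and Meis1. Hoxd1 passed at all 4 stages, Hoxa5 and Hoxd3 at 3, Hoxb2, Hoxb5 and Hoxb7 at 2, and Hoxb4, Hoxd4, Hoxd8 and Meis1 at 1. Rises made up all of these results except those of Hoxb2 in HE and HE2 and Hoxb5 in HE. The arrays lay on 3 slides. All myeloid arrays lay on slide 3, so for the 7 results in myeloid progenitors the difference within the slide is the pooled value itself. The results in HE, HE2 and CD41+KIT+Tie2- progenitors kept the direction of the pooled value within each slide that held both induced and uninduced arrays. Their sizes within slides ran from 0.49 to 2.28 (log2). Here the further uninduced progenitor array stood for the uninduced cells on the slide of induced progenitor array 2.

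HOXD genes with low numbers lie at the end of the cluster that is switched on earliest in the embryo. Hoxd1, Hoxd3, Hoxd4 and Hoxd8 passed the test as higher with Dox in myeloid progenitors. At the other stages Hoxd1 passed at each, Hoxd3 passed in HE and HE2, and Hoxd4 and Hoxd8 did not pass. The promoters of these 4 genes are given here, since they moved together in myeloid progenitors. Each line gives the 250 bases before the start site in RefSeq, build GRCm38.p6, plus strand, with matches to the RUNX motif TGTGGT or TGCGGT on either strand in capitals. Hoxd8 lies at chr2:74704365-74704614, Hoxd3 at chr2:74711743-74711992, Hoxd4 at chr2:74721728-74721977 and Hoxd1 at chr2:74762730-74762979.
Hoxd8: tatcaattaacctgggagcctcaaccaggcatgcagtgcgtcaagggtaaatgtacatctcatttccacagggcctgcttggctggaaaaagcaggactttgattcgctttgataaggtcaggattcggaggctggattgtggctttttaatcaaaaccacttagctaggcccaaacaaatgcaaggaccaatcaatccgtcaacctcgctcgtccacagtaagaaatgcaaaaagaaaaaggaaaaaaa
Hoxd3: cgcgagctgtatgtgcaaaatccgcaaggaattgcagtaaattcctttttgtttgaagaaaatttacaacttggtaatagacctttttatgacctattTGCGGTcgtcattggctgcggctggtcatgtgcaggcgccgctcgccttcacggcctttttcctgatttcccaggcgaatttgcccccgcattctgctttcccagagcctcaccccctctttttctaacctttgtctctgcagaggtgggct
Hoxd4: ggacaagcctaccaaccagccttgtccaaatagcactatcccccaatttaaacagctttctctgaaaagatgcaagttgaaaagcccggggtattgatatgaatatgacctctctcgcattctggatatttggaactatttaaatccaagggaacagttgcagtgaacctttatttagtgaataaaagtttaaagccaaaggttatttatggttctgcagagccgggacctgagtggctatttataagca
Hoxd1: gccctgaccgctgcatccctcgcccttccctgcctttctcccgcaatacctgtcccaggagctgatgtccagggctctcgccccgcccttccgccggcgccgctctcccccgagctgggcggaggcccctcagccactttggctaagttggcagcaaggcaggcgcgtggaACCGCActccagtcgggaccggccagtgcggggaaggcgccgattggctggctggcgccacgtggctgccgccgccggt
Hoxd3 and Hoxd1 each held 1 match to TGCGGT, which starts 152 bases before the start site in Hoxd3, and which in Hoxd1 lies on the opposite strand with its left end 79 bases before it. Hoxd4 and Hoxd8 held none. At least 1 RUNX match was found in 18.6% of 32851 promoters of the same length and in 4 of the 29 promoters listed for the members. For single motifs, TGTGGT was found in 14% of all promoters and TGCGGT in 5.1%. The GC content of these windows was 44.4% for Hoxd8, 49.2% for Hoxd3, 40.4% for Hoxd4 and 71.6% for Hoxd1, beside a median of 52.4% over all promoters.

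Hoxd1 encodes the HOXD factor at the end of the cluster. It read 6.33, 7.36 and 6.96 (log2 intensity) on the uninduced HE arrays and 8.66, 8.63 and 8.40 on the induced ones. The HE2 arrays gave 6.95, 7.26 and 7.40 without Dox and 8.63, 8.59 and 9.19 with Dox. All induced arrays lay above all uninduced arrays at both stages, and the rises of 1.68 ± 0.27 (SE, adjusted P = 2.35e-04) and 1.60 ± 0.27 (adjusted P = 4.29e-04) passed the test. Progenitors (CD41+KIT+Tie2-) gave 7.17 and 6.55 without Dox and 7.81 and 8.53 with Dox, a rise of 1.31 ± 0.33 (adjusted P = 0.0232). With the slide as a block this change was 0.95 and did not pass, and it did not pass either without uninduced array 2 (1.00) or without induced array 2 (0.95). In all, the call was lost in 19 of 36 other settings, some of which leave out an array of another group.

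In myeloid progenitors Hoxd1 read 5.35, 5.44 and 5.10 without Dox, on no array well above background, and 8.41, 8.04 and 7.79 with Dox. The uninduced cells therefore have only a bound, and Hoxd1 was at least 6.31-fold higher after 12 h of Dox. This bound sets the mean of the brighter group against a floor on each dim array, namely the dimmest spot that was still well above background or, if higher, the probe itself. The fitted change was 2.78 ± 0.27 (adjusted P = 1.29e-06), the largest rise with Dox of any member tested. The uninduced myeloid progenitors held the lowest Hoxd1 values of all groups, and no other group overlapped them.

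Hoxd3, a neighbour of Hoxd1 whose factor belongs to another paralogue group, followed a like course in HE and HE2. It read 6.28, 6.26 and 7.03 on uninduced and 8.40, 8.06 and 8.47 on induced HE arrays, a rise of 1.79 ± 0.24 (adjusted P = 4.13e-05). In HE2 the values were 6.52, 6.42 and 7.14 without Dox and 8.01, 8.07 and 8.52 with Dox, a rise of 1.51 ± 0.24 (adjusted P = 2.70e-04). Neither stage showed overlap between induced and uninduced arrays. In myeloid progenitors it was not well above background without Dox (4.90, 4.73 and 4.91) and read 6.63, 6.20 and 6.10 with Dox, at least 2.15-fold higher (fitted change 1.46 ± 0.24, adjusted P = 3.30e-04). Its values in CD41+KIT+Tie2- progenitors were 6.14 and 5.85 without Dox and 6.84 and 6.5 with Dox, which did not overlap, and the change of 0.68 ± 0.29 did not pass.

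Hoxd4 and Hoxd8 passed the test in myeloid progenitors only. Hoxd4 read 5.86, 5.48 and 5.63 without Dox, well above background on 1 of the 3 arrays, and 8.70, 7.51 and 8.01 with Dox, a rise of 2.42 ± 0.32 (adjusted P = 3.34e-05). Hoxd8 read 5.82, 6.17 and 5.83 without Dox, well above background on 2 of the 3, and 8.92, 7.70 and 7.76 with Dox, a rise of 2.19 ± 0.28 (adjusted P = 3.14e-05). For both genes every induced array lay more than 1 log2 unit above every uninduced one. In HE, Hoxd4 read 9.09, 8.48 and 8.43 without Dox and 10.08, 9.62 and 9.97 with Dox, which did not overlap, and the change of 1.22 ± 0.32 fell short of the unadjusted threshold with an adjusted P of 0.012. Hoxd8 read 9.61, 9.71 and 10.42 on uninduced and 10.63, 10.02 and 9.93 on induced HE arrays, which overlapped (change 0.28 ± 0.28).

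Further along the cluster no gene was called with Dox. Hoxd9 was not well above background on the uninduced myeloid arrays (4.87, 5.45 and 4.60) and read 6.75, 5.89 and 5.85 with Dox, at least 1.86-fold higher, with a fitted change of 1.19 ± 0.56 that did not pass (adjusted P = 0.188). Hoxd10 changed by -0.29 to 0.24 over the 4 stages and did not pass at any. Hoxd11, Hoxd12 and Hoxd13 stayed under the filter. Of the genes beside the cluster, Mtx2, which encodes a mitochondrial membrane protein and borders Hoxd1, changed by -0.13 to 0.08, and Lnpk, beyond the other end, changed by -0.41 to -0.22, and neither passed the test at any stage. Over the 6 HOXD genes tested, the median change with Dox was 0.75 in HE and 0.72 in HE2, and 0.34 in CD41+KIT+Tie2- and 1.82 in myeloid progenitors.

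**Figure D3:**
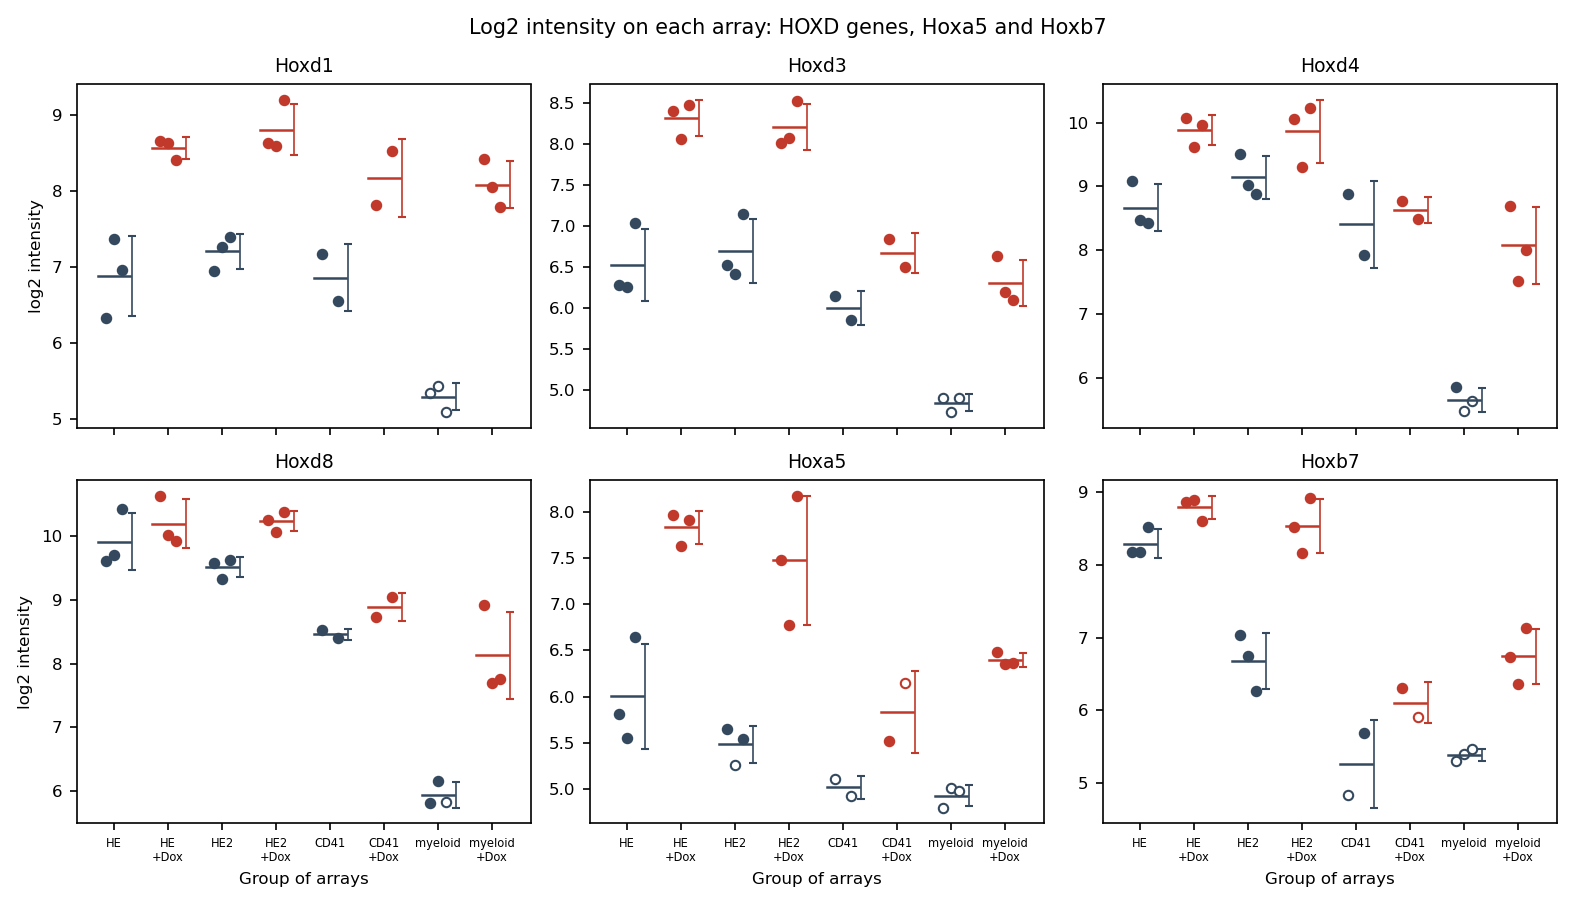
Log2 intensity on each array of Hoxd1, Hoxd3, Hoxd4, Hoxd8, Hoxa5 and Hoxb7 in the 8 groups. Dark points are uninduced and red points induced arrays, open points were not well above background, lines are group means and bars beside them the SD (2 or 3 arrays). In uninduced myeloid progenitors Hoxd1 lay between 5.10 and 5.44 and with Dox between 7.79 and 8.41.

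In the HOXA cluster Hoxa5 was the 1 gene of 6 tested that passed the test with Dox. It read 5.81, 5.55 and 6.64 in uninduced HE and 7.97, 7.63 and 7.91 in induced HE, a rise of 1.83 ± 0.30 (adjusted P = 2.55e-04). On HE2 arrays it read 5.65, 5.26 and 5.54 without Dox, where array 2 was not well above background, and 7.48, 6.78 and 8.18 with Dox, a rise of 2.00 ± 0.30 (adjusted P = 1.37e-04). In uninduced myeloid progenitors no array was well above background (4.79, 5.01 and 4.98), and with Dox the values were 6.49, 6.35 and 6.36, at least 2.34-fold higher (fitted change 1.47 ± 0.30, adjusted P = 0.00199). At these 3 stages no induced array overlapped an uninduced one. Hoxa5 in CD41+KIT+Tie2- progenitors read 5.10 and 4.92 without Dox and 5.52 and 6.14 with Dox, only the 5.52 being well above background, and the change of 0.82 ± 0.36 did not pass. The 250 bases before its start site at chr6:52204588-52204837, minus strand, held no RUNX match, with a GC content of 63.6%, and are shown for comparison with the HOXD promoters above.
Hoxa5: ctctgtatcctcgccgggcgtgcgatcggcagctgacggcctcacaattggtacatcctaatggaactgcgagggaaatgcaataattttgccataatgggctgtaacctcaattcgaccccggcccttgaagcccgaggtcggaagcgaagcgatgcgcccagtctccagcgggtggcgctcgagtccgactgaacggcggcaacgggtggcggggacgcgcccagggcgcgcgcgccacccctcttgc

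The other HOXA genes gave no call with Dox. Hoxa3, Hoxa4, Hoxa6 and Hoxa7 changed by -0.61 to 0.95 over the 4 stages. Hoxa9 read 6.35, 5.77 and 6.17 on uninduced and 5.56, 5.84 and 5.85 on induced HE arrays, which overlapped. In HE2 it read 6.33, 6.41 and 5.96 without Dox and 5.85, 6.13 and 6.03 with Dox, and in progenitors 5.80 and 5.92 without and 5.74 and 6.48 with Dox. In myeloid progenitors Hoxa9 read 6.36, 6.25 and 6.31 without Dox and 6.17, 6.25 and 5.98 with Dox, so that it lay within about 1 log2 unit on all 22 arrays. Beside the cluster, Snx10, which encodes a sorting nexin and lies beyond Skap2, rose with Dox at all 4 stages by 1.42 to 1.97, and Skap2, an adaptor of Src family kinases that lies between it and the cluster, rose in HE (1.1) and HE2 (1.16). Hibadh, beyond the other end, changed by -0.26 to -0.02 and gave no call.

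The HOXB genes moved in both directions with Dox. Hoxb2, whose product acts in the hindbrain, fell in the endothelial stages. It read 11.50, 11.59 and 11.08 in uninduced HE and 9.96, 10.11 and 9.68 in induced HE, a fall of 1.47 on the log2 scale (SE 0.29, adjusted P = 0.00143). The HE2 arrays gave 10.29, 10.56 and 9.74 without Dox and 8.66, 9.20 and 9.29 with Dox, a change of -1.15 ± 0.29 (adjusted P = 0.00928). The induced arrays lay below the uninduced ones at both stages. Progenitors (CD41+KIT+Tie2-) gave 5.95 and 5.63 without Dox and 6.83 and 6.29 with Dox, and this difference of 0.77 ± 0.35 did not pass. The further uninduced progenitor array read 6.48, above induced array 2, and the difference within slides was 0.89 on one and -0.19 on the other. The call in HE2 was lost in 18 of 36 other settings, and the call in HE in 1.

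Hoxb5, which lies further along the cluster, read 10.47, 10.04 and 10.16 in uninduced HE and 9.37, 9.35 and 8.90 in induced HE, a change of -1.02 ± 0.26 (adjusted P = 0.0106). This call lay at the threshold and was lost in 23 of 36 other settings. In CD41+KIT+Tie2- progenitors Hoxb5 read 5.55 and 5.11 without Dox, the latter not well above background, and 6.96 and 6.69 with Dox, a rise of 1.5 ± 0.31 (adjusted P = 0.00778). This call was lost in 6 of 36 other settings, among them the slide as a block (1.49) and leaving out uninduced array 2 (1.28) or induced array 1 (1.36), and without uninduced array 2 no member passed with Dox at this stage. In HE2 it read 9.80 and 9.06 without Dox, where the spot of array 2 was marked as an outlier and left out of the fit, and 9.23, 9.20 and 9.14 with Dox, which overlapped. In myeloid progenitors it read 5.25, 6.31 and 6.15 without Dox, well above background on 1 array, and 7.0, 6.83 and 6.70 with Dox, a difference of 0.94 ± 0.26 that stayed under 2-fold.

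Hoxb4, a factor used to expand blood stem cells in culture, was detected on all arrays. It read 8.43, 8.81 and 8.40 in uninduced and 9.84, 9.70 and 9.54 in induced myeloid progenitors, a rise of 1.15 ± 0.22 (adjusted P = 0.00119) without overlap. In HE it read 12.11, 12.36 and 12.10 without Dox and 12.17, 12.40 and 11.57 with Dox, which overlapped. In HE2 it read 11.46, 11.56 and 10.97 without Dox and 11.56, 11.77 and 12.11 with Dox, which shared the value of 11.56. Its values in CD41+KIT+Tie2- progenitors were 8.43 and 8.18 without Dox and 9.31 and 9.14 with Dox, a difference of 0.92 ± 0.27 that did not pass.

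Hoxb7 rose with Dox in HE2 and in myeloid progenitors. In HE2 it read 7.03, 6.75 and 6.26 without Dox and 8.52, 8.16 and 8.91 with Dox, a rise of 1.85 ± 0.26 (adjusted P = 7.51e-05). In myeloid progenitors no uninduced array was well above background (5.30, 5.40 and 5.47), and with Dox the values were 6.74, 6.37 and 7.12, at least 2.55-fold higher (fitted change 1.35 ± 0.26, adjusted P = 0.00122). In HE it read 8.17, 8.17 and 8.52 without Dox and 8.86, 8.89 and 8.61 with Dox, where the groups did not overlap but the change of 0.50 ± 0.26 did not pass. In CD41+KIT+Tie2- progenitors it read 4.84 and 5.70 without Dox and 6.31 and 5.90 with Dox, with 1 array of each group well above background.

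**Figure D4:**
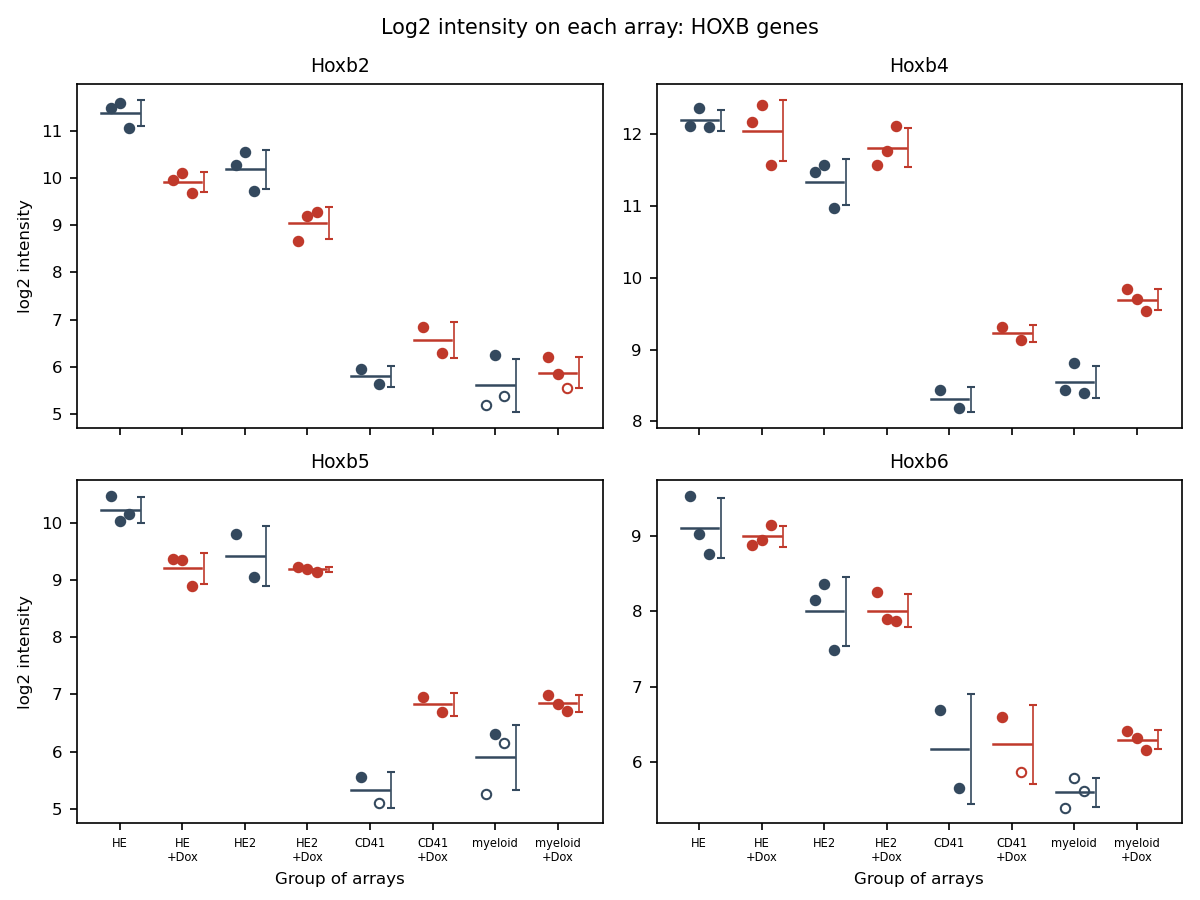
Log2 intensity on each array of Hoxb2, Hoxb4, Hoxb5 and Hoxb6 in the 8 groups, drawn as in the plot of the HOXD genes. Hoxb2 fell from 11.08 to 11.59 on uninduced HE arrays to 5.63 and 5.95 on uninduced CD41+KIT+Tie2- progenitor arrays, and its induced HE arrays (9.68 to 10.11) lay below the uninduced ones.

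Hoxb3, Hoxb6, Hoxb8 and Hoxb9 gave no call with Dox. Hoxb3 changed by -0.61 ± 0.34 in HE at its brightest probe, while its other probe changed by -1.40 ± 0.21, and with the mean of both probes 3 members fell in HE instead of 2. Hoxb6 was not well above background on the uninduced myeloid arrays and read 6.16 to 6.41 with Dox, at least 1.62-fold higher. Hoxb13 stayed under the filter and was well above background on all 3 induced HE2 arrays and on none of the uninduced HE2 arrays. Beside the cluster, Skap1, an adaptor protein of T cells that borders Hoxb1, rose with Dox in HE (1.85), in CD41+KIT+Tie2- progenitors (3.57) and in myeloid progenitors (2.04), and Snx11 beyond it gave no call. Ttll6, beyond the other end, gave no call either. In the HOXC cluster only Hoxc12 and Hoxc13 were tested, neither was called, and Hoxc13 passed the filter through 1 array, at 7.51 in induced myeloid progenitors.

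Among the MEIS genes, Meis1, the leukaemia partner of HOXA9, was detected throughout. In CD41+KIT+Tie2- progenitors it read 11.59 and 12.04 without Dox and 12.86 and 13.86 with Dox, a rise of 1.54 ± 0.38 (adjusted P = 0.0191), and the further uninduced array read 12.36, below both induced arrays. In myeloid progenitors it read 12.74, 12.39 and 12.42 without Dox and 13.90, 13.33 and 13.53 with Dox, where the groups did not overlap, and the difference of 1.07 ± 0.31 had an adjusted P of 0.0250 and did not reach the unadjusted threshold. In HE2 the values were 11.87, 12.16 and 12.88 without Dox and 12.75, 13.44 and 13.32 with Dox, a difference of 0.87 ± 0.31 with overlap. In HE they were 11.68, 12.29 and 12.59 without Dox and 11.72, 12.05 and 11.62 with Dox, also with overlap. The call in progenitors was lost in 5 of 36 other settings, among them leaving out uninduced array 1 or 2 or induced array 2. Its promoter held 1 match to TGTGGT.

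Meis2 read 8.25, 8.80 and 8.17 on uninduced and 8.54, 9.28 and 9.79 on induced HE2 arrays, which overlapped. In myeloid progenitors it read 5.57, 6.69 and 5.97 without Dox and 7.05, 6.84 and 7.08 with Dox, a difference of 0.91 ± 0.35 that did not pass. Meis3 read 10.61, 11.02 and 9.90 in uninduced HE and 10.81, 11.76 and 12.28 in induced HE, which overlapped (1.11 ± 0.40, adjusted P = 0.0684). Its difference was -0.01 within slide 1 and 2.13 within slide 2, and its changes at the other stages were 0.47 in HE2, 0.02 in CD41+KIT+Tie2- progenitors and 0.16 in myeloid progenitors.

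No PBX gene was called with Dox. Pbx2 changed by -0.35 to 0.34 and Pbx3 by -0.25 to 0.24 over the 4 stages. Pbx2 read 13.38, 13.51 and 13.71 on uninduced and 13.94, 13.76 and 13.82 on induced HE arrays, which did not overlap, and the change of 0.31 ± 0.17 did not pass. Its values on the other arrays lay between 12.79 and 14.09. Pbx3 read 11.70, 11.57 and 11.70 in uninduced and 11.38, 11.32 and 11.51 in induced myeloid progenitors, a difference of -0.25 ± 0.15 that did not pass. Its values on the other arrays lay between 11.75 and 12.43. For Pbx3 in myeloid progenitors the 95% interval ran from -0.56 to 0.06, so that a 2-fold change lay outside it.

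**Figure D5:**
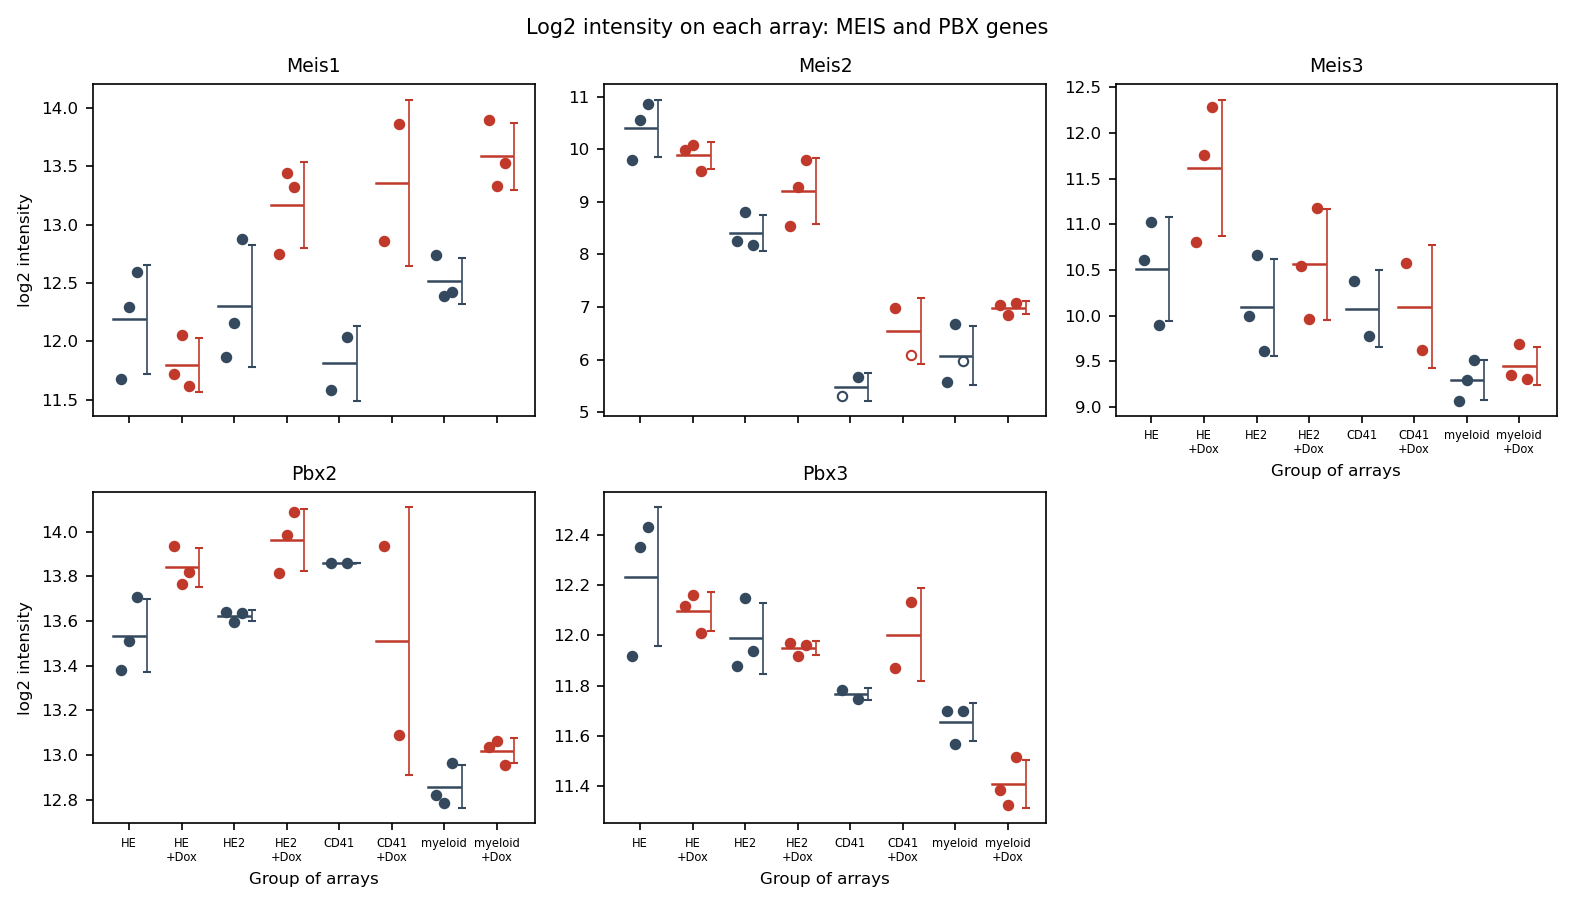
Log2 intensity on each array of the 3 MEIS genes and of Pbx2 and Pbx3, drawn as in the plot of the HOXD genes. The induced CD41+KIT+Tie2- progenitor arrays lay at 12.86 and 13.86 for Meis1, above the uninduced ones at 11.59 and 12.04.

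Whether the response to Dox differed between stages was tested as a difference of differences. Over all 4 stages together, the F test called 3 of 28 members (4.69% of all genes), which were Hoxb2 (F = 12.3, adjusted P = 0.00555), Hoxb5 (F = 15.2, adjusted P = 0.00284) and Hoxd8 (F = 9.14, adjusted P = 0.0166). Between HE and myeloid progenitors 4 members were called (4.71%), all with the higher response in myeloid progenitors, by 1.74 ± 0.40 for Hoxb2, 1.29 ± 0.31 for Hoxb4, 1.96 ± 0.36 for Hoxb5 and 1.91 ± 0.40 for Hoxd8. Between HE2 and CD41+KIT+Tie2- progenitors 2 were called (0.638%), Hoxb2 and Hoxb5, with adjusted P values of 0.117 and 0.141, and these calls were lost in 11 and 21 of 35 other settings. With the slide as a block, these 2 differences and that of Hoxb4 between HE and myeloid progenitors were no longer called. Hoxb2 read 5.18, 6.25 and 5.38 in uninduced myeloid progenitors and, like Hoxb5, was well above background there on 1 array. In uninduced CD41+KIT+Tie2- progenitors Hoxb2 and Hoxb5 read between 5.11 and 5.95. A fall from such low values could not be measured in full, and the part of this limit in the differences was not tested. Between CD41+KIT+Tie2- and myeloid progenitors 1 was called (1.5%), Hoxd4, by 2.20 ± 0.50 (adjusted P = 0.0361). Between HE and HE2 limma called none (1.35%), and 3 members had an unadjusted P of at most 0.05, for which the share of all genes was not taken. The lengths of induction differed, 12 h in myeloid progenitors and from day 1 of blast culture in the others, so that stage and length of induction cannot be told apart for comparisons with myeloid progenitors.

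Without Dox, some HOX genes fell at each step of differentiation and no member rose. From HE to HE2, 6 members fell (2.64% of all genes fell) and none rose (2.4%), among them Meis2 (-1.99 ± 0.35), Hoxb7 (-1.61 ± 0.26), Hoxd10 (-1.32 ± 0.21), Hoxb2 (-1.20 ± 0.29) and Hoxb6 (-1.11 ± 0.28). Without uninduced HE array 1, and likewise without uninduced HE2 array 3, 3 of them passed. From HE2 to CD41+KIT+Tie2- progenitors, 9 fell (3.64%) and none rose (1.76%). The median change of the members was -0.60 at the former step and -0.59 at the latter, beside 0.03 and -0.02 for all genes.

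The step from HE2 to CD41+KIT+Tie2- progenitors was mainly one of the HOXB cluster, where 6 of 8 genes tested fell. Hoxb2 went from 9.74 to 10.56 in uninduced HE2 to 5.63 and 5.95 in progenitors, a fall of 4.40 on the log2 scale (SE 0.32, adjusted P = 2.44e-07). Hoxb5 fell by 4.10 (SE 0.31) to 5.11 and 5.55, and Hoxb4 fell by 3.02 (SE 0.24) to 8.18 and 8.43, the latter staying well above background. Hoxb8 was well above background on all uninduced HE2 arrays and on no uninduced progenitor array, and was at least 3.82-fold lower. Meis2 (-2.92 ± 0.39) fell as well, to 5.30 and 5.68, while Meis1, Meis3, Pbx2 and Pbx3 gave no call. The mean of the 6 endothelial markers fell from 11.04 to 12.10 in uninduced HE2 to 9.98 and 10.04 in uninduced progenitors and that of the mesenchyme and smooth muscle markers from 9.30 to 10.33 to 8.48 to 8.61, and their part in these falls was not tested.

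From uninduced CD41+KIT+Tie2- to uninduced myeloid progenitors the falls were in the HOXD cluster. Here 5 members fell (6.83% of all genes) and none rose (7.09%), which were Hoxd4 (-2.75 ± 0.35), Hoxd8 (-2.53 ± 0.32), Hoxd1, Hoxd3 and Pbx2 (-1.0 ± 0.19). Hoxd1 was at least 2.71-fold lower and Hoxd3 at least 1.73-fold lower. The HOXD genes among them are the 4 that passed the test as higher with Dox in myeloid progenitors, and the 2 comparisons share the uninduced myeloid arrays. All 6 HOXD genes tested had a positive change with Dox in myeloid progenitors. Hoxd9, which passed in neither comparison, was at least 2.10-fold lower in uninduced myeloid than in uninduced CD41+KIT+Tie2- progenitors. The uninduced progenitor arrays of the fit and the myeloid arrays lay on different slides. Against the further uninduced progenitor array, on the slide of the myeloid arrays, the differences were -1.85 for Hoxd1, -0.82 for Hoxd3, -2.12 for Hoxd4, -2.60 for Hoxd8 and -0.25 for Pbx2. With the slide as a block 3 of the 5 passed. Leaving out uninduced myeloid array 1 or 2 left 3 calls, and leaving out uninduced progenitor array 1 left 2.

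With Dox the fall of the HOXB genes at the exit from HE2 was present as well. From induced HE2 to induced CD41+KIT+Tie2- progenitors, 12 members fell (5.28% of all genes) and none rose (2.03%), among them Hoxb4 (-2.59 ± 0.24), Hoxb2 (-2.49 ± 0.32), Hoxb7 (-2.43 ± 0.29) and Hoxb5 (-2.37 ± 0.29), and without induced progenitor array 2 the number was 7. Hoxa5 (-1.65 ± 0.33), Hoxd3 (-1.53 ± 0.27) and Hoxd8 (-1.35 ± 0.32) were also among those that fell, and with the slide as a block Hoxd3 (-1.16) and Hoxd8 (-1.48) did not pass. For these 3 genes the test of a difference from the step without Dox made no call (adjusted P = 0.502, 0.601 and 0.908 in that order). The same test called Hoxb2 and Hoxb5, whose falls were smaller with Dox, by 1.92 ± 0.45 and 1.73 ± 0.42. Their adjusted P values in limma were 0.117 and 0.141, and the calls were lost in 11 and 21 of 35 other settings. Both genes lay near background in uninduced CD41+KIT+Tie2- progenitors, and the part of this limit was not tested. From HE to HE2 with Dox, 1 member rose (1.62%), Meis1 (1.37 ± 0.31), and 2 fell (1.49%), among them Hoxd10, a result that rests on few arrays, since none of the 3 passed without induced HE array 1 and 1 passed without induced HE2 array 2 or 3. From induced CD41+KIT+Tie2- to induced myeloid progenitors limma called no member as higher (4.87%) or lower (2.51%), and without induced myeloid array 1 a single one passed. In the main fit 6 members had an unadjusted P under 0.05 at this step, and the share of all genes at that P was not taken.

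Genes that are known to set or read HOX expression were taken from fixed lists. Of all genes tested, 4.7% rose with Dox in HE, 5.11% in HE2, 3.05% in CD41+KIT+Tie2- and 5.12% in myeloid progenitors. Of 7 further TALE genes, 6 were tested and only Irx3 rose, in HE2 (2.17 ± 0.38). None of the 3 CDX genes, which switch on HOX genes in the embryo, passed the filter. Of 12 tested genes of the MLL and trithorax group, which keeps HOX genes on, Aff4 rose in myeloid progenitors (1.40 ± 0.32) and no other was called. Of 13 tested Polycomb genes, whose products keep HOX genes off, Ezh1 rose in HE2 (1.24 ± 0.20), CD41+KIT+Tie2- progenitors (1.23 ± 0.24) and myeloid progenitors (1.62 ± 0.20). The noncoding RNA Hoxa11os, the 1 of 6 HOX cluster RNAs with a probe under its symbol, gave no call. Of 11 tested genes described as targets of HOXA9 and MEIS1 in leukaemia, Lmo2 (1.06 ± 0.24) and Trib2 (2.03 ± 0.33) rose in HE, and Erg (2.09 ± 0.31), Hlf (1.71 ± 0.23) and Sox4 (1.61 ± 0.41) in myeloid progenitors.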

How the data were processed

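The scanner files hold spot intensities of 1-colour Agilent mouse arrays as deposited by the authors. The labels name Feature Extraction 10.7.1.1 and the file headers 10.7.3.1. Median spot intensities were background corrected with normexp (offset 16) and quantile normalized over all 23 arrays in limma 3.58.1 (R 4.3.3, with version 1.17.8 of the data.table package), without 3671 control spots and without outlier spots. The 59305 other spots gave 55681 probes, of which 26582 had a symbol through RefSeq, for 20145 genes. The deposited log2 values of the authors, which their notes describe as normalized with limma, served as an alternative. No other column was left out (0).

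The 15203 genes that reached 6.5 in log2 intensity on 1 array or more were fitted on 22 arrays in 8 groups (14 residual degrees of freedom) with lmFit and eBayes, and P values were adjusted by Benjamini-Hochberg. Calls needed a 2-fold change or more with an unadjusted P not above 0.001. Precision is limited by the 2 or 3 arrays per group. Same-numbered uninduced HE and HE2 arrays deviated together (r = 0.39, 0.79 and 0.61), which was taken as a pairing for that comparison alone. Promoters came from RefSeq (GRCm38.p6). Values per array are given for members that passed with Dox or in the F test, for the 5 brightest of the others and for some genes fixed by name, among them Meis1, Hoxa9 and Hoxa10, and the other members by range and count. Some members are counted with the others but not reported here singly. The members, the lists of HOX regulators and targets and the marker lists (endothelium, mesenchyme and smooth muscle, haematopoietic, macrophage, mast cell, cardiac, epithelial, undifferentiated ES) were chosen with earlier results of these data known. The fit was tested on simulated data. Alternatives were another offset, scaling to the 75th percentile, no background correction, normalization of blast and myeloid arrays apart, the deposited log2 values, other filters, the mean of all probes, other call rules, slide and replicate blocks, the further array, fits of single comparisons and leaving out each array. Figures were drawn with Python 3.11.15 and matplotlib 3.10.9.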

Additional observations from a re-analysis of the deposited data

Results flagged for a closer look

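The response to Dox was called as differing between stages, by a test of the difference itself, for 5 members. Of all genes tested, 0.638% were called between HE2 and CD41+KIT+Tie2- progenitors and 1.5% between CD41+KIT+Tie2- and myeloid progenitors. Between HE and myeloid progenitors 4.71% were called, and by the F test 4.69%. Between HE2 and CD41+KIT+Tie2- progenitors the responses of Hoxb2 and Hoxb5 differed by 1.92 and 1.73 (log2, progenitors minus HE2), with adjusted P values of 0.117 and 0.141. Between CD41+KIT+Tie2- and myeloid progenitors that of Hoxd4 differed by 2.20. Between HE and myeloid progenitors the differences (myeloid minus HE) were 1.74 for Hoxb2, 1.29 for Hoxb4, 1.96 for Hoxb5 and 1.91 for Hoxd8. In comparisons with myeloid progenitors, induced for 12 h and not from day 1 of blast culture, stage and length of induction cannot be told apart. Hoxb2 and Hoxb5 lay near background in uninduced CD41+KIT+Tie2- and myeloid progenitors, where a fall could not be measured in full. The F test over the 4 stages gave 12.3 for Hoxb2, 15.2 for Hoxb5 and 9.14 for Hoxd8. Of 35 other settings, the call was lost in 21 for Hoxb5 and 11 for Hoxb2 between HE2 and CD41+KIT+Tie2- progenitors, and in 7 for Hoxd4. Between HE and myeloid progenitors it was lost in 9 for Hoxb4, 8 for Hoxb2 and 1 each for Hoxb5 and Hoxd8.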

How the results depend on the processing

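Over 62 results for single members, 2220 values under other settings held the direction of the reported value, and 268 of them lost the call. Many of these values could not change direction. Other call rules, other filters, fits of single comparisons and leaving out an array of another group all keep the fitted change. The rule of a 2-fold change alone could not lose a call either. Of 20 results with Dox, 9 kept the call in every setting run, of 35 between stages 13, and of 7 differences between stages 0. The number of members called moved by over 1.5 times as follows, and the cause was not tested. An offset of 50 gave 4 for Dox in myeloid progenitors and 3 from uninduced CD41+KIT+Tie2- to myeloid progenitors. Scaling to the 75th percentile gave 3 for Dox in HE and 3 in HE2, all higher, 1 in CD41+KIT+Tie2- progenitors, and from HE to HE2 1 without and 0 with Dox. The deposited log2 values gave 4 for Dox in myeloid progenitors. An adjusted P of at most 0.05 gave 5 in the F test. A 2-fold change alone gave 5 for Dox in CD41+KIT+Tie2- progenitors, 5 from HE to HE2 with Dox and 1 from CD41+KIT+Tie2- to myeloid progenitors with Dox. The slide block gave 3 from uninduced CD41+KIT+Tie2- to myeloid progenitors. Fits of only the groups compared, with fewer arrays, gave 0 for Dox in CD41+KIT+Tie2- progenitors, 3 from HE to HE2 without and 1 with Dox, and 7 from HE2 to CD41+KIT+Tie2- progenitors with Dox.

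Leaving out each array in turn gave 4 to 5 members for Dox in HE, 4 to 5 in HE2, 0 to 3 in CD41+KIT+Tie2- progenitors (0 without uninduced array 2) and 7 to 8 in myeloid progenitors. Without Dox it gave 3 to 6 from HE to HE2, 6 to 10 from HE2 to CD41+KIT+Tie2- progenitors and 2 to 5 from these to myeloid progenitors, and with Dox 0 to 3, 7 to 12 and 0 to 1. The F test gave 2 to 4. With the replicate number as a block, the pairing gave 6 members from HE to HE2 without Dox, 5 for Dox in HE, 5 in HE2, 2 in CD41+KIT+Tie2- progenitors and 7 in myeloid progenitors, and moved no count by over 1.5 times. Where a probe was not well above background its level is only a bound.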
